A study of Mus musculus with 12 samples.

Results

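Elastic fibre assembly in smooth muscle cells (SMCs) of the mouse thoracic aorta was followed through 10 genes, chosen by symbol as the genes for elastin (*Eln*), fibrillin-1 (*Fbn1*), the fibulins *Fbln5* and *Efemp2*, the microfibril proteins *Mfap2*, *Mfap4*, *Mfap5*, and *Emilin1*, and the crosslinking enzymes *Lox* and *Loxl1*. All 10 were found among the 52636 genes of the count table, and all 10 passed the filter on low counts that left 22320 genes for testing. Bulk RNA-seq had been done on 12 libraries, 3 in each of 4 groups of genotype and aortic segment. The mice were male, on a C57BL/6J background, and 12 weeks old. All of them carried *Myh11-CreERT2*, a tamoxifen-inducible Cre recombinase driven by the smooth muscle myosin heavy chain promoter, and the *mT/mG* reporter, which turns a recombined cell from red to green, and all received tamoxifen. GFPiSMC mice had intact TGF-β receptors. Tgfbr1/2iSMCKO mice also carried floxed *Tgfbr1* and *Tgfbr2* on both alleles, so that recombination deletes both receptors. Tamoxifen was given for 5 days. The labels name a schedule begun at 4 weeks of age with a daily 1 mg and another begun at 11 weeks with a daily 2 mg. The study's text places these 12-week libraries 1 week after disruption in mature aortas, which is the schedule begun at 11 weeks. From each of 3 mice per genotype, viable GFP+ cells of the ascending aorta with the arch (hereafter ascending) and of the descending thoracic aorta were sorted into separate libraries. The reporter marks cells in which Cre was active, and the Cre line limits the study to male mice because the construct lies on the Y chromosome.

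Elastic fibres give the aortic wall its recoil. Tropoelastin, the soluble product of *Eln*, is deposited on a scaffold of microfibrils built from fibrillins and their associated proteins, with fibulins bringing tropoelastin, microfibrils, and crosslinking enzymes together. Lysyl oxidases then oxidise lysine residues so that elastin monomers are joined into an insoluble polymer. In the aorta, medial SMCs lay down most of this elastin during late fetal and early postnatal life, and the fibres are long-lived.

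*Fbln5* and *Efemp2* encode related fibulins that differed in these data, and the bases upstream of their start sites are shown so that this pair can be compared. The sequences are from RefSeq on GRCm38.p6, 250 bases each, 5′ to 3′ on the gene's strand, and neither window overlaps an annotated exon. They lie at chr12:101819120-101819369 on the minus strand for *Fbln5* and at chr19:5473696-5473945 on the plus strand for *Efemp2*. Capitals mark GGGCGG or its complement CCGCCC.
Fbln5: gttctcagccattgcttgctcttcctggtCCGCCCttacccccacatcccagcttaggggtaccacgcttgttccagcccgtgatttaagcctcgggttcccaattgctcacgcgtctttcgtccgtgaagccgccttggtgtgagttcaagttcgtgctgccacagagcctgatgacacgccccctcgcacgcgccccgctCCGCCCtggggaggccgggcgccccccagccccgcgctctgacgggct
Efemp2: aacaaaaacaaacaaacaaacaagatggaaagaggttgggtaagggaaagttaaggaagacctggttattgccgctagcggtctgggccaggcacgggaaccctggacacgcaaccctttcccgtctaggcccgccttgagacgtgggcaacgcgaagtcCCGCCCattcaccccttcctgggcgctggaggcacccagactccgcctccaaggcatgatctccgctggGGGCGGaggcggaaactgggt
Both windows held 2 such matches, a motif found on either strand in 32.7% of all 32851 promoter windows of this length. Neither window held CAGACA (17.1% of all windows), GTCTAGAC (0.167%), TGANTCA (6.75%), CATTCC (12.6%), or TATAAA (12.4%) on either strand, so in these windows the motif counts were equal. RefSeq gives further start sites, 2 windows in all for *Fbln5* and 3 for *Efemp2*, and those not printed overlap exons of the gene itself. The other *Fbln5* window held 1 CAGACA and 0 GGGCGG matches, and each of the other *Efemp2* windows held 0 and 5. A promoter window was found for 5 of the 10 genes, and those of *Fbn1*, *Mfap2*, and *Emilin1* overlapped annotated exons.

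Total counts ran from 20467027 to 31392396 per library, from 9208 to 20000 sorted cells. SMC markers (*Myh11*, *Acta2*, *Tagln*, and 4 others) summed to 33862 to 47783 CPM (counts normalised to library size with TMM factors) per library. None of the 7 passed the test between genotypes, against 3.23% of all genes called lower and 1.8% called higher. Macrophage and leukocyte markers summed to 17.7 CPM at most. The 6 endothelial markers summed to 104 CPM at most, most of it *Pecam1*. Of these, 5 had a positive difference between genotypes (median log2 0.95, against 0.04 over all 22320 genes tested, of which 10338 were negative). The 1 endothelial marker that passed, *Cdh5*, was higher in Tgfbr1/2iSMCKO (2.97, edgeR adjusted p = 0.0250), against 1.8% of all genes called higher. It was at 0.497 to 2.71 CPM against 0 to 0.513 CPM in GFPiSMC. The part of endothelial RNA in the results was not tested. Counts over the whole *Tgfbr1* gene, 196 to 292 CPM in GFPiSMC and 198 to 295 CPM in Tgfbr1/2iSMCKO, and over *Tgfbr2*, 88.9 to 128 and 68.2 to 102 CPM, overlapped between genotypes. Such counts include the exons outside the floxed part and do not check the deletion.

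Together the 10 genes held 0.662% ± 0.0557 (SD, n = 3) of all counts in ascending and 0.492% ± 0.0218 in descending GFPiSMC libraries. In Tgfbr1/2iSMCKO libraries they held 0.158% ± 0.0162 and 0.135% ± 0.0199. Over the 12 libraries, with segment as a covariate, 6 of the 10 genes were lower in Tgfbr1/2iSMCKO and none was higher (edgeR quasi-likelihood test, Benjamini-Hochberg adjusted p under 0.05 over all genes tested), against 3.23% of all genes called lower and 1.8% called higher. The 10 genes were chosen with earlier results of these data known. The study had already named *Eln*, *Mfap4*, and *Lox* as downregulated between these genotypes, so the share called is not independent of those results. The genes that fell were *Eln*, *Mfap4*, *Lox*, *Fbln5*, *Mfap5*, and *Fbn1*. The first 5 of these changed by more than 2-fold, as 1.64% of all genes did in that direction, and in each of the 5 all 6 Tgfbr1/2iSMCKO libraries lay below all 6 GFPiSMC libraries, which held for 2.89% of all genes. The median log2 fold change was −0.90 over the 10 genes and 0.04 over all genes tested. In bulk libraries, less RNA per cell and fewer cells with the transcript cannot be told apart. The study also did single-cell RNA-seq of ascending/arch SMCs, not used here. It reported selected matrix genes as lower in nearly every receptor-deficient cell. The fit over 12 libraries took the 2 libraries of an animal as independent. With those 2 summed, which leaves 3 against 3, the 5 genes that changed by more than 2-fold passed. *Fbn1* did not (edgeR adjusted p = 0.203). With these sums 451 of all genes were called in either direction, against 1123 in the fit over 12 libraries. Of the Tgfbr1/2iSMCKO animals, replicate 3 had the highest level in both segments for 6 of the 10 genes, *Fbn1*, *Fbln5*, *Efemp2*, *Emilin1*, *Lox*, and *Loxl1*. Without that animal 8 of the 10 genes were called in either direction, all of them lower, as were 993 of all genes in either direction, against 1123 with all animals. *Emilin1* and *Loxl1*, which joined the calls there, each passed under only 1 of 14 alternative fits.

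**Figure D1:**
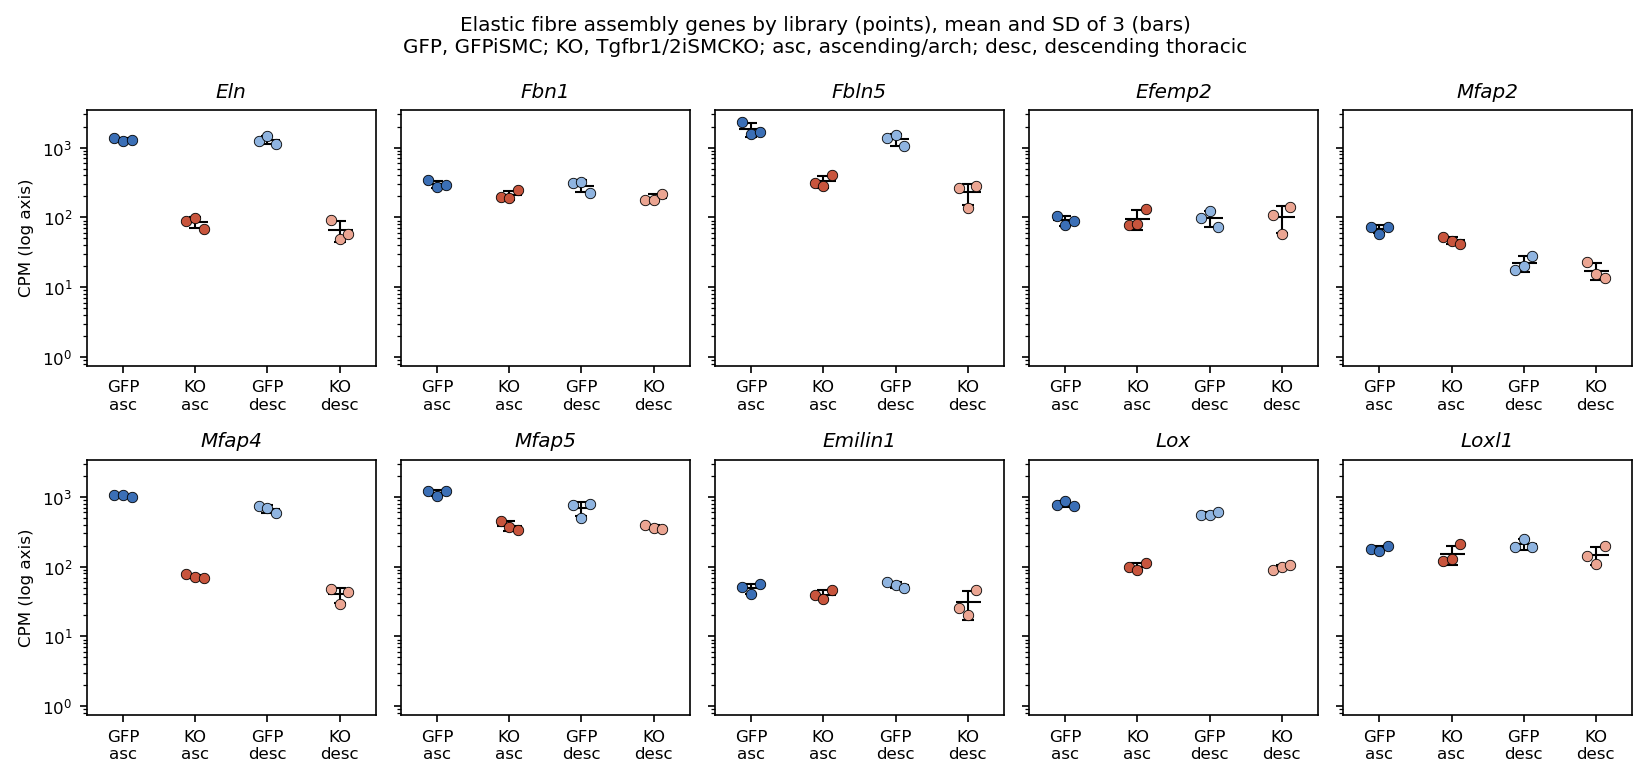
Level of each of the 10 genes in CPM on a log axis, in the 3 libraries (points) of each group, with the mean and SD as bars. Tgfbr1/2iSMCKO points of *Eln*, *Mfap4*, *Lox*, *Fbln5*, and *Mfap5* lie below every GFPiSMC point, those of *Efemp2* overlap, and *Mfap2* separates by segment.

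*Eln* (ENSMUSG00000029675.12, chromosome 5, 134702593 to 134747323, GRCm38, minus strand) encodes tropoelastin, the monomer of elastin. Its level was 1385, 1263, and 1307 CPM in the ascending and 1251, 1458, and 1133 CPM in the descending libraries of GFPiSMC mice. It was 88.2, 97.8, and 68.9 CPM and 90.7, 49.1, and 57.3 CPM in those of Tgfbr1/2iSMCKO mice. The genotypes were separated by a gap far wider than the spread within either of them, and the segments of a genotype overlapped. The fitted difference was −4.12 (log2, SE 0.17, adjusted p = 1.03e-08, edgeR), a 17.4-fold lower level (95% interval 13.5 to 22.4). It was −3.96 within the ascending and −4.28 within the descending segment (adjusted p = 3.18e-06 and 1.49e-06), and the difference between those effects, −0.33 with an interval of −0.98 to 0.32, did not pass the test.

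Among the microfibril genes the responses ran from nearly as large as that of *Eln* to none that passed. *Mfap4* (chromosome 11, 61485431 to 61488900) encodes a fibrinogen-domain glycoprotein that binds microfibrils and elastin. Its level in GFPiSMC mice was 1057, 1059, and 995 CPM in ascending and 752, 684, and 592 CPM in descending libraries. In Tgfbr1/2iSMCKO mice it was 77.5, 70.6, and 69.2 CPM and 48.4, 29.1, and 43.4 CPM. Every knockout library thus lay far below every control library, and in both genotypes the descending libraries were the lower ones. The genotype difference was −3.95 (log2, SE 0.14, adjusted p = 1.5e-09), 15.5-fold (interval 12.6 to 19.0), with −3.84 in the ascending and −4.07 in the descending segment. The largest falls among the 10 genes, in fold, were thus those of *Eln* and *Mfap4*, whose intervals overlap.

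*Mfap5* (chromosome 6, 122505845 to 122529290) encodes a small fibrillin-binding glycoprotein, MAGP-2, and had the highest level per principal transcript length of the 10 in all 4 groups, though it came second to *Mfap4* in both control groups per union of exons. Ascending GFPiSMC libraries held 1215, 1026, and 1228 CPM and descending ones 774, 504, and 782 CPM. Tgfbr1/2iSMCKO libraries held 457, 368, and 335 CPM in the ascending and 401, 365, and 345 CPM in the descending segment. Receptor-deficient cells were at a common level in both segments, whereas the control segments did not overlap. The genotype difference was −1.24 (SE 0.16, adjusted p = 0.000336). It was −1.58 in the ascending segment (adjusted p = 0.000833) and −0.89 in the descending segment (adjusted p = 0.0284). The latter call was lost when any animal but GFPiSMC replicate 2 was left out (edgeR adjusted p of 0.0649 to 0.158). It was also lost with the descending libraries fitted alone (edgeR adjusted p = 0.144), and in all it held under 4 of 13 alternatives. The test of the difference between segments gave 0.69 (SE 0.26, unadjusted p = 0.0193 by the quasi-likelihood model, adjusted p = 1).

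*Fbn1* (chromosome 2, 125300594 to 125507993), the gene for the main structural protein of aortic microfibrils, changed little in size. GFPiSMC libraries held 342, 268, and 288 CPM in the ascending and 313, 323, and 223 CPM in the descending segment, and Tgfbr1/2iSMCKO libraries 195, 188, and 247 CPM and 179, 180, and 216 CPM. The genotypes did not overlap within a segment but did across segments, where the highest knockout library exceeded the lowest control library. The difference was −0.54 (SE 0.12, adjusted p = 0.0179), 1.46-fold. It did not pass within either segment (adjusted p = 0.261 and 0.183), nor without GFPiSMC replicate 1, GFPiSMC replicate 2, Tgfbr1/2iSMCKO replicate 1, or Tgfbr1/2iSMCKO replicate 2 (adjusted p of 0.159, 0.0668, 0.134, and 0.0812).

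*Mfap2* (chromosome 4, 141010418 to 141015984), which encodes the fibrillin-binding glycoprotein MAGP-1, differed by −0.44 (interval −0.81 to −0.08, adjusted p = 0.187) and did not pass. *Emilin1* (chromosome 5, 30913402 to 30921277), the gene for a glycoprotein at the interface of elastin and microfibrils, had the lowest level per length of the 10 in all 4 groups. It ran from 40.0 to 61.2 CPM in GFPiSMC and from 20.5 to 46.2 CPM in Tgfbr1/2iSMCKO libraries, a difference of −0.57 (interval −1.01 to −0.13, adjusted p = 0.157). Its 2 highest knockout libraries, at 45.9 and 46.2 CPM, were those of Tgfbr1/2iSMCKO replicate 3. Without that animal the difference was −0.83 and passed (adjusted p = 0.0372).

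**Figure D2:**
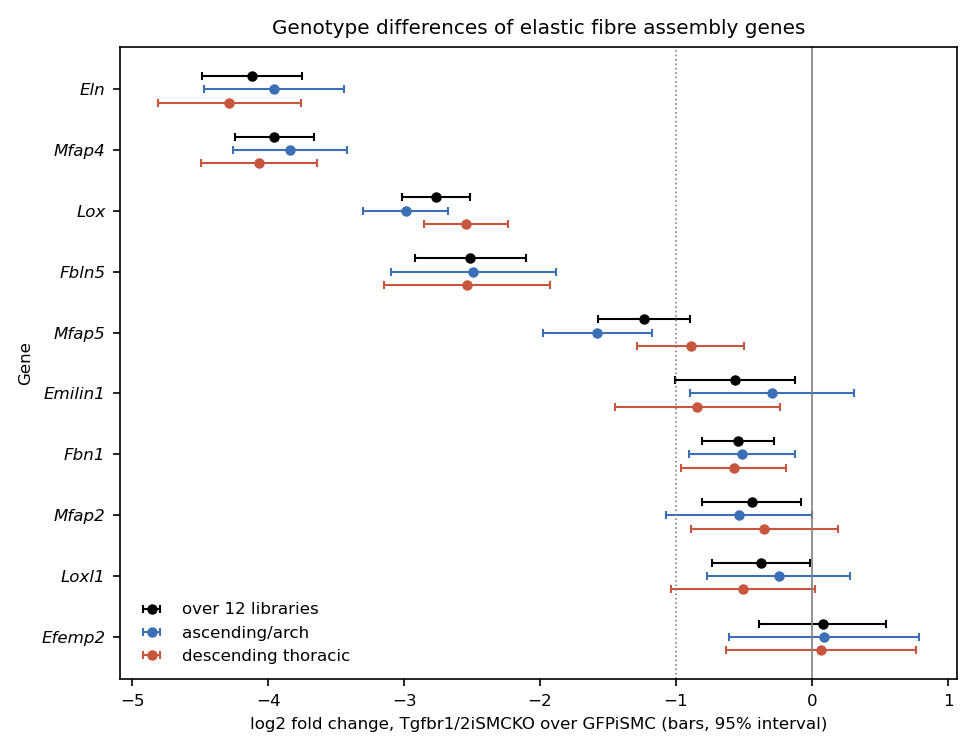
Fitted log2 fold change of each gene, Tgfbr1/2iSMCKO over GFPiSMC, over 12 libraries (black) and within the ascending (blue) and descending (red) segment, with 95% intervals as bars; the dotted line marks a 2-fold fall. The intervals of *Eln*, *Mfap4*, *Lox*, and *Fbln5* lie wholly beyond that line in all 3 fits, and those of *Efemp2* span 0.

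The fibulins parted. *Fbln5* (ENSMUSG00000021186.9, chromosome 12, 101746565 to 101819055) encodes fibulin-5, which binds tropoelastin and cell-surface integrins. Its level was 2339, 1546, and 1664 CPM in the ascending and 1396, 1524, and 1039 CPM in the descending libraries of GFPiSMC mice. Its mean CPM was the highest of the 10 genes in both control groups, but in the descending group it overlapped *Eln*, which was higher in replicate 3 (1133 CPM). In Tgfbr1/2iSMCKO mice *Fbln5* was at 309, 277, and 400 CPM and 261, 138, and 284 CPM, with all 6 libraries below the lowest control library. The difference was −2.51 (SE 0.19, adjusted p = 3.4e-06), 5.71-fold (interval 4.30 to 7.58), and was −2.49 and −2.54 within the ascending and descending segments.

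*Efemp2* (ENSMUSG00000024909.14, chromosome 19, 5473954 to 5482517) encodes fibulin-4, which binds lysyl oxidase and tropoelastin. Its libraries held 105, 77.0, and 88.7 CPM and 99.4, 122, and 71.8 CPM in GFPiSMC mice, and 76.8, 79.3, and 132 CPM and 109, 57.4, and 141 CPM in Tgfbr1/2iSMCKO mice, ascending before descending. The genotypes overlapped in both segments, and the lowest and the 2 highest values were all in knockout libraries. The difference was 0.08 (interval −0.39 to 0.55, adjusted p = 0.928), so that a fall as large as that of *Fbln5* lay outside the interval. Its sign turned with the animals included, to −0.23 without Tgfbr1/2iSMCKO replicate 3 and −0.02 without GFPiSMC replicate 3. *Fbln5* over *Efemp2*, compared per transcript length, was 9.20 ± 0.799 (SD, n = 3) in ascending and 6.18 ± 0.479 in descending GFPiSMC libraries. It was 1.59 ± 0.224 and 1.02 ± 0.0994 in Tgfbr1/2iSMCKO libraries.

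The lysyl oxidases also parted. *Lox* (ENSMUSG00000024529.13, chromosome 18, 52516067 to 52529867) encodes the founding enzyme of the family, which oxidises lysines of elastin and fibrillar collagen. It stood at 763, 883, and 738 CPM in ascending and 557, 557, and 617 CPM in descending GFPiSMC libraries. Tgfbr1/2iSMCKO libraries held 97.5, 90.5, and 113 CPM and 90.8, 99.98, and 106 CPM. The control segments were apart, and the knockout libraries lay within a narrow band whatever the segment. The genotype difference was −2.77 (SE 0.12, adjusted p = 1.03e-08), 6.80-fold (interval 5.72 to 8.08). The effect was −2.99 in the ascending and −2.55 in the descending segment, and their difference, 0.44 (SE 0.19), had an unadjusted p of 0.0371 by the quasi-likelihood model and an adjusted p of 1.

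*Loxl1* (ENSMUSG00000032334.10, chromosome 9, 58287738 to 58313186) encodes a lysyl oxidase associated with elastic fibre upkeep. It ranged from 169 to 253 CPM in GFPiSMC and from 110 to 208 CPM in Tgfbr1/2iSMCKO libraries, with overlap in both segments. The difference, −0.38 (interval −0.74 to −0.01, adjusted p = 0.288), did not pass. As with *Emilin1*, the 2 highest knockout libraries, 208 and 196 CPM, were those of Tgfbr1/2iSMCKO replicate 3, and without that animal the difference was −0.65 and passed (adjusted p = 0.0131). In GFPiSMC libraries *Lox* exceeded *Loxl1* per transcript length, by 3.05 ± 0.534 (SD, n = 3) in the ascending and 1.93 ± 0.367 in the descending segment. In Tgfbr1/2iSMCKO libraries *Loxl1* exceeded *Lox*, with ratios of *Lox* over *Loxl1* of 0.470 ± 0.0883 and 0.485 ± 0.133, and the ratio was above 1 in all 6 control libraries and below 1 in all 6 knockout libraries.

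Split by segment, 5 genes were lower in Tgfbr1/2iSMCKO in the ascending segment, *Eln*, *Fbln5*, *Mfap4*, *Mfap5*, and *Lox*, against 1.01% of all genes called lower and 0.403% called higher. These 5 were also the members called lower in the descending segment, against 1.21% of all genes called lower and 0.52% called higher, and no member was higher in either segment. In each segment 7 of the 10 had all 3 knockout libraries below all 3 control libraries, which held for 10.1% of all genes in the ascending and 7.75% in the descending segment. Beside the 5 called genes, these were *Fbn1* in both, *Mfap2* in the ascending, and *Emilin1* in the descending segment. For the difference of the effect between segments, edgeR called none of the 10 and 0% of all genes in either direction. At an unadjusted p under 0.05 it counted 2 of the 10, *Mfap5* and *Lox*, and 2.95% of all genes, and DESeq2 called 8 of all genes after adjustment, none of them a member.

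Between segments, *Mfap2* was the 1 member called in the main fit, and only in GFPiSMC mice. In GFPiSMC mice it fell from 72.3, 57.9, and 73.5 CPM in the ascending to 17.6, 19.8, and 28.4 CPM in the descending libraries, and the ascending library exceeded the descending library of the same animal by 4.10, 2.93, and 2.59 times. The fitted difference was −1.63 (SE 0.25, adjusted p = 0.0153), 3.10-fold, the 1 member called, against 0.309% of all genes called lower and 0.0672% called higher. Leaving out any GFPiSMC animal ended the call (adjusted p of 0.294, 0.143, and 0.0675 without replicates 1, 2, and 3) with differences of −1.43 to −1.79. In Tgfbr1/2iSMCKO mice *Mfap2* was 52.7, 46.3, and 41.5 CPM in ascending and 22.6, 15.5, and 13.5 CPM in descending libraries. Every animal again had the higher level in the ascending aorta, by 2.33, 2.99, and 3.07 times. There the difference was −1.44 (SE 0.25, adjusted p = 0.0611), and with edgeR none of the 10 passed, against 0.0941% of all genes called lower and 0.0179% called higher. The 2 with an unadjusted p under 0.05 were *Mfap2* and *Mfap4*, against 3.68% of all genes, and these 2 also had non-overlapping, lower descending libraries, as 4.08% of all genes did. DESeq2 called both (adjusted p = 2.94e-05 and 0.00702). The difference in the *Mfap2* segment effect between genotypes was 0.19, with an interval of −0.57 to 0.94.

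*Mfap4*, *Mfap5*, *Lox*, and *Fbln5* also had non-overlapping, lower descending libraries in GFPiSMC mice, which with *Mfap2* makes 5 of 10 genes, against 7.8% of all genes. Their fitted differences were −0.62, −0.75, −0.46, and −0.49, and none passed (adjusted p = 0.315, 0.169, 0.355, and 0.910), although *Mfap4*, *Mfap5*, and *Lox* with *Mfap2* were the 4 of 10 with an unadjusted p under 0.05 by edgeR, against 5.98% of all genes. The control libraries in these contrasts are also those of the genotype comparisons. With the animal as a block, pairing the 2 segments taken as those of each mouse, *Mfap5* passed (−0.77, edgeR adjusted p = 0.0440). In Tgfbr1/2iSMCKO mice the same differences were −0.85 for *Mfap4*, −0.06 for *Mfap5*, −0.02 for *Lox*, and −0.53 for *Fbln5*, and the libraries of *Mfap5*, *Lox*, and *Fbln5* overlapped. *Eln*, *Fbn1*, *Efemp2*, *Emilin1*, and *Loxl1* had overlapping segments in both genotypes.

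**Figure D3:**
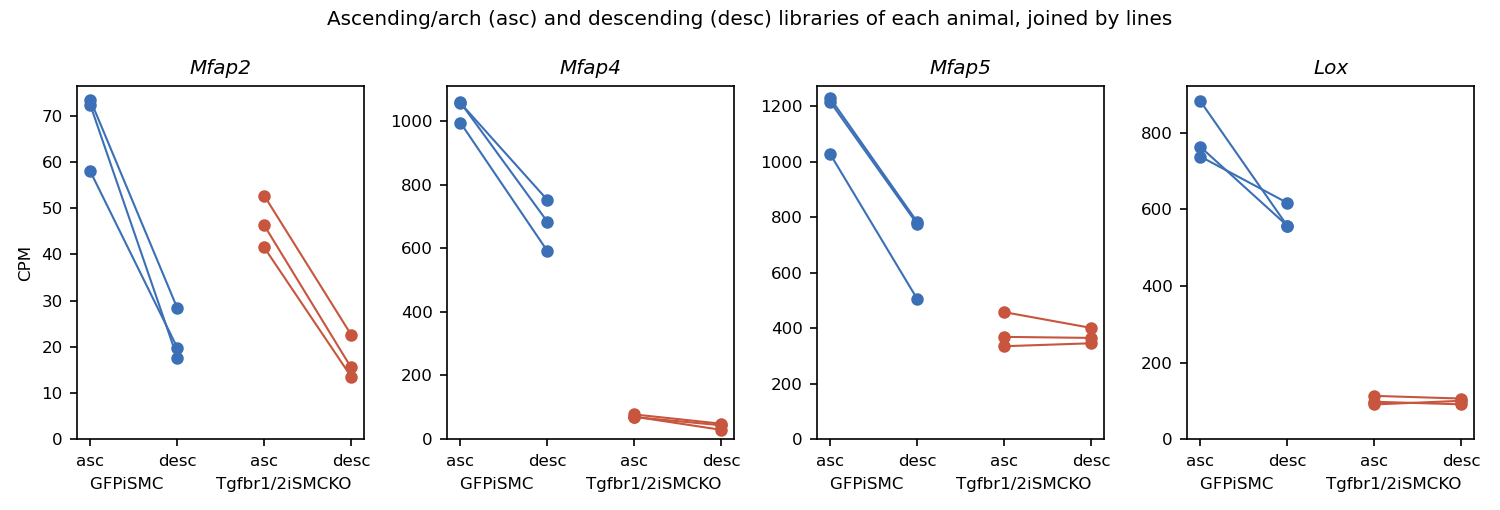
CPM of *Mfap2*, *Mfap4*, *Mfap5*, and *Lox* in the ascending (asc) and descending (desc) libraries, with each line joining the 2 libraries taken as those of an animal (GFPiSMC blue, Tgfbr1/2iSMCKO red). All 6 lines fall for *Mfap2* and *Mfap4*, and those of *Mfap5* and *Lox* fall in the 3 GFPiSMC animals and are nearly level in Tgfbr1/2iSMCKO.

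The summed level of fibroblast markers was also lower in descending libraries. The 9 markers (*Pdgfra*, *Dcn*, *Lum*, and 6 others, none at 0 throughout a group) summed to 200 to 231 CPM in ascending and 97.2 to 108 CPM in descending GFPiSMC libraries, and to 131 to 274 CPM and 37.2 to 71.9 CPM in Tgfbr1/2iSMCKO libraries. In each genotype 7 of the 9 had a negative difference between segments, and 1 passed, *Lum* (−3.89 and −4.73, adjusted p = 0.0146 and 0.0104), against the 0.309% and 0.0941% of all genes called lower. *Serpinf1* and *Ly6a* had positive differences in both genotypes and did not pass. The part of fibroblast RNA in the segment differences of *Mfap2*, *Mfap4*, and *Mfap5* was not tested. Between genotypes, 2 of the 9 were lower, *Col14a1* (−0.82) and *Serpinf1* (−1.58), against 3.23% of all genes, and of the 7 that did not pass, *Dcn* (−0.12) and *Lum* (−0.21) had negative and *Pdgfra*, *Dpt*, *Pi16*, *Cd34*, and *Ly6a* positive differences (0.24 to 1.25). The median over the 9 was 0.24. The summed levels overlapped between genotypes in the ascending but not in the descending segment. The genotype difference of *Eln* was −3.96 in the ascending and −4.28 in the descending segment. That of *Mfap4* was −3.84 in the ascending and −4.07 in the descending segment. The part of fibroblast RNA in these genotype differences was not tested either.

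Levels were also put in order per kilobase of transcript (CPM per kb, longest principal transcript), the scale on which genes can be compared. In ascending GFPiSMC libraries *Mfap5* led at 768 ± 74.9 CPM per kb (SD, n = 3), followed by *Mfap4* at 602 ± 21.0 and *Eln* at 342 ± 16.1. *Fbln5* at 317 ± 73.4 overlapped *Eln*, *Lox* followed at 168 ± 16.3, and *Mfap2*, *Loxl1*, *Efemp2*, *Fbn1*, and *Emilin1* lay between 63.3 and 12.7. The order in descending GFPiSMC libraries was the same for the first 5, with *Mfap5* (456 ± 105), *Mfap4* (393 ± 46.8), and *Eln* (332 ± 42.8) each overlapping the next, and *Mfap2* moved from the sixth to the ninth place at 20.4 ± 5.28.

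In ascending Tgfbr1/2iSMCKO libraries *Mfap5*, at 257 ± 42.2 CPM per kb, stood apart from the rest. *Fbln5* (56.5 ± 11.0), *Loxl1* (46.7 ± 14.3), *Mfap2* (43.6 ± 5.25), *Mfap4* (42.1 ± 2.57), and *Efemp2* (36.4 ± 11.8) formed a run in which each overlapped the next. *Eln* came after them at 22.1 ± 3.82, beside *Lox* at 21.1 ± 2.42 and *Fbn1* at 17.5 ± 2.70. In descending Tgfbr1/2iSMCKO libraries *Mfap5* led at 246 ± 18.6, *Loxl1* was second at 45.2 ± 13.3, and *Eln* stood at 17.1 ± 5.71. *Eln* thus had rank 3 in both control groups and rank 7 in both knockout groups. Dividing by the union of all annotated exons instead, an alternative chosen after the data were seen, gave ranks 5 and 4 in the control groups and 9 in both knockout groups. *Eln* over *Fbn1* per transcript length, elastin over the microfibril backbone, was 13.8 ± 1.05 and 14.1 ± 1.66 in ascending and descending GFPiSMC libraries and 1.297 ± 0.387 and 1.08 ± 0.425 in Tgfbr1/2iSMCKO libraries. By the union of exons it was 6.64 ± 0.508 and 6.79 ± 0.802 in control and 0.625 ± 0.187 and 0.521 ± 0.205 in knockout libraries, so whether *Eln* exceeded *Fbn1* in knockout libraries depends on the length used, while the order of the genotypes was the same.

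The mix of the 10 transcripts shifted accordingly. *Eln* made up 14.3% ± 0.253 (SD, n = 3) of their summed level per length in ascending and 19.7% ± 2.55 in descending GFPiSMC libraries, and 4.01% ± 0.865 and 3.59% ± 0.903 in Tgfbr1/2iSMCKO libraries. *Mfap4* went from 25.3% ± 1.85 to 7.61% ± 0.372 in the ascending and from 23.2% ± 1.61 to 4.92% ± 0.693 in the descending segment. The share of *Mfap5* was 32.1% ± 2.01 and 27.0% ± 6.31 in control and 46.4% ± 6.01 and 52.7% ± 6.69 in knockout libraries. *Loxl1*, whose own level did not pass the test, held 2.32% ± 0.181 and 3.81% ± 0.690 in control and 8.47% ± 2.59 and 9.54% ± 2.13 in knockout libraries. These shares are of a sum that itself fell, so a larger share is not a higher level. By the union of exons *Mfap5* held 19.8% and 16.7% in control and 30.0% and 35.6% in knockout libraries, and *Eln* 10.0045% and 13.7% against 2.94% and 2.74%, with the same direction in each case.

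**Figure D4:**
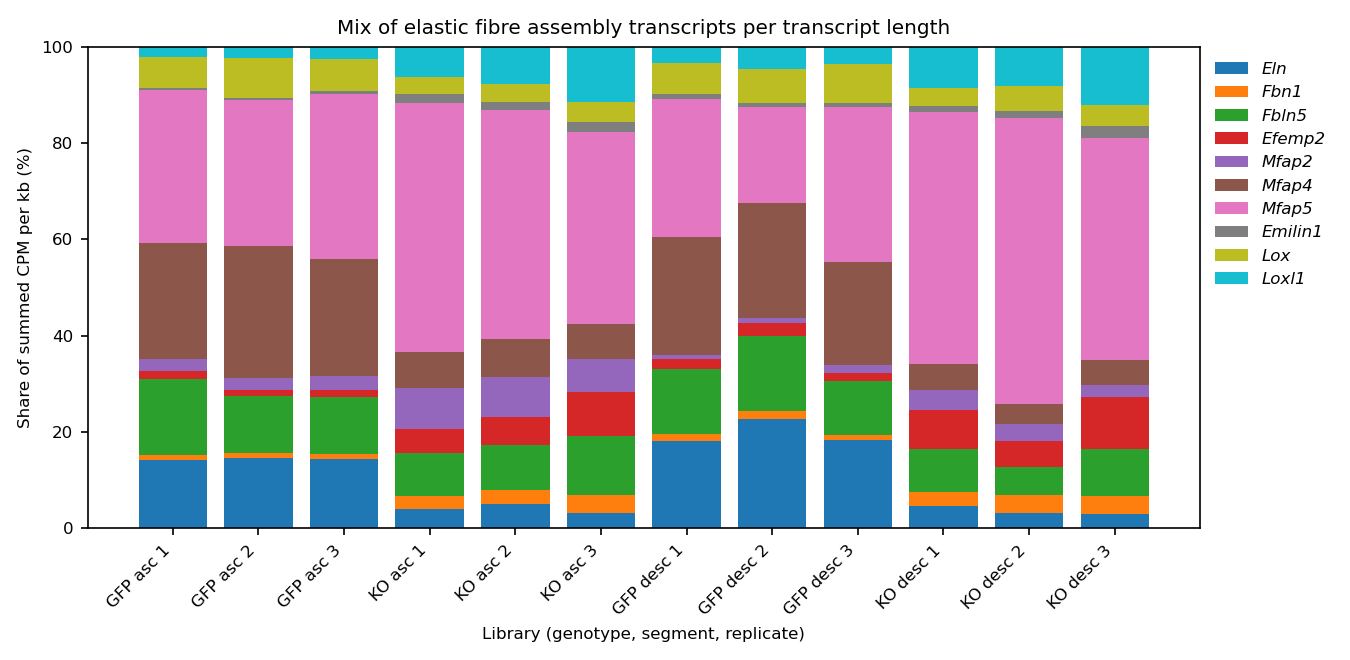
Share of each of the 10 genes in their summed CPM per kb, by library (GFP, GFPiSMC; KO, Tgfbr1/2iSMCKO; asc, ascending; desc, descending), as stacked bars that total 100%. *Eln* and *Mfap4* take a smaller share in the 6 Tgfbr1/2iSMCKO libraries and *Mfap5* and *Loxl1* a larger one, in both segments.

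Of 25 further genes for fibrillin-2, fibulins, latent TGF-β binding proteins, emilins, lysyl oxidase-like enzymes, and proteins that process or organise their components, all 25 were tested over the 12 libraries, 1 was lower, and none was higher, a share of the list near the 3.23% and 1.8% of all genes. Their median log2 fold change was −0.18. *Ltbp3*, which encodes a protein that holds latent TGF-β in the matrix, fell from 165 ± 36.2 to 49.2 ± 10.5 CPM (SD, n = 6 libraries; −1.75, adjusted p = 6.38e-05). *Ltbp1*, the most abundant of its family here, was 1089 ± 109 and 781 ± 342 CPM, did not pass (−0.48, adjusted p = 0.325), and had its 2 highest knockout libraries in Tgfbr1/2iSMCKO replicate 3. *Fbln1*, the gene for fibulin-1, was called between segments of GFPiSMC mice, at 52.3, 21.9, and 42.2 CPM in ascending and 2.84, 0.386, and 0.763 CPM in descending libraries (−4.87, edgeR adjusted p = 0.0146). Of all genes, 0.309% were called lower in that contrast. In Tgfbr1/2iSMCKO mice *Fbln1* was also lower in descending libraries, at 0.337 to 1.16 CPM against 3.78 to 9.95 CPM in ascending ones, but was not called. The part of fibroblast RNA in these differences was not tested. *Loxl3*, the most abundant further lysyl oxidase, was 42.3 ± 11.8 and 34.2 ± 13.6 CPM and did not pass.

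Of 15 genes for elastin-degrading proteases and their inhibitors, 13 were tested, 4 were lower in Tgfbr1/2iSMCKO, and 1 was higher, against 3.23% and 1.8% of all genes. The median log2 fold change of the 13 was −0.15. The genotype fit over 12 libraries took the 2 libraries of an animal as independent, for the 10 members and for all other genes. Calls outside the 10 members were not checked gene by gene with counts summed per animal. The cathepsin genes *Ctsl* and *Ctsk*, for lysosomal cysteine proteases that cleave elastin, fell from 180 ± 19.1 to 74.3 ± 9.54 CPM (−1.28, adjusted p = 1.51e-05) and from 17.3 ± 2.08 to 6.42 ± 1.64 CPM (−1.44, adjusted p = 0.000457; SD, n = 6 libraries). Genes for inhibitors went either way. *Cst3*, encoding the cathepsin inhibitor cystatin C, fell by 0.85 on the log2 scale and the metalloproteinase inhibitor gene *Timp2* fell by 0.83, while *Timp4* rose by 1.12 (adjusted p = 0.002, 0.000289, and 0.0108). *Timp3*, the most abundant metalloproteinase inhibitor gene, did not pass (−0.09, interval −0.54 to 0.37). Neither did *Ctsb*, the most abundant of the protease genes, at 1888 and 1706 CPM (adjusted p = 0.658), and *Mmp7* and *Elane* were too low to test.

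Across the 12 libraries the log2 level of *Eln* was most like that of *Csrp2*, the gene for a LIM-domain protein of SMCs (Pearson r = 0.994), followed by *Gm14326* (0.991), *Gm6969* (0.990), *Col3a1* (0.989), and *AA465934* (0.989), ranked over the 11126 non-member genes whose mean count reached 100. These correlations describe 12 points that share genotype and, in pairs, an animal, and that fall into 2 separate clusters of *Eln* level, the genotypes. *Csrp2* fell from 1307 ± 136 to 285 ± 51.8 CPM and *Col3a1*, a fibrillar collagen gene, from 1245 ± 111 to 250 ± 23.6 CPM (SD, n = 6 libraries), while *Gm14326* was listed at 0 in the 6 knockout libraries. Among the members, *Mfap4* was most like *Eln* (0.988), then *Lox* (0.977), *Fbln5* (0.964), *Mfap5* (0.878), *Fbn1* (0.824), *Emilin1* (0.681), *Loxl1* (0.589), *Mfap2* (0.322), and *Efemp2* (−0.02).

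Counts of 5 members may include reads of a gene on the opposite strand, since no source states that counting used strand. The shared exon stretch was 267 bases for *Eln* with *Gm30003*, 2442 for *Fbn1* with *Gm9913*, 173 for *Efemp2* with *Mus81*, 89 for *Mfap4* with *Mapk7*, and 30 for *Lox*. The partner genes had at most 46, 22, 973, and 442 counts per library for the first 4 of these.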

How the data were processed

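Bulk RNA-seq of GFP+ SMCs was analysed in 12 libraries, 3 per group of genotype and segment. The authors trimmed reads with Trim Galore, aligned them to GRCm38 with HISAT2, and quantified GENCODE M15 genes with StringTie. The deposited values are whole-number counts per gene, without normalization between libraries, and how coverage became counts is not given in the sources used here. Total counts were 20467027 to 31392396 per library. Counting error depends on the counts of each gene, which were as low as 0 to 14 in GFPiSMC libraries for *Cdh5*.

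GENCODE M21 (GRCm38), newer than the release the authors used, gave symbols and coordinates, and 233 of 52636 genes had none. Efemp2 and Lox carry a later identifier version there. CPM used TMM factors. The main test was the edgeR 4.0.16 quasi-likelihood test in R 4.3.3, after filterByExpr on the 4 groups, with Benjamini-Hochberg adjustment over 22320 genes. Genotype was fitted with segment over 12 libraries, and contrasts within and between segments came from a fit with 4 group means. SEs were derived from the fold change and its F statistic, and intervals are 95%. Segments of an animal are not independent, so sums per animal, a limma 3.58.1 voom fit with the animal as a random effect, and a block were alternatives, as were DESeq2 1.42.0, other scalings and filters, and leaving out each animal. Scripts were tested on simulated data.

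By the labels, an ascending and a descending library that share genotype and number were treated as segments of one animal. After removal of group means, their correlation over the 12695 genes whose mean count reached 50 was 0.0853, −0.148, and 0.0341 in GFPiSMC and 0.0504, 0.301, and 0.561 in Tgfbr1/2iSMCKO. The members, the gene lists, and the rule for named genes (all members, listed genes that passed or were most abundant in their role, and the 5 genes most like Eln) were chosen with earlier results of these data known. *Loxl3*, *Ltbp1*, *Ctsb*, and *Timp3* were named as the most abundant, and *Fbln1* because it passed between segments. Levels between genes used the longest principal transcript, with the union of exons as an alternative added after the data were seen. Figures used matplotlib 3.10.9 in Python 3.11.15.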

Additional observations from a re-analysis of the deposited data

How the results depend on the processing

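Calls of *Eln*, *Mfap4*, *Lox*, *Fbln5*, and *Mfap5* over the 12 libraries held under all 14 alternatives, with the log2 fold change of *Eln* between −4.28 and −3.99. Scaling by library size alone moved the median of all genes from 0.04 to 0.16 and ended only the *Mfap5* call in the descending segment (adjusted p = 0.106). Genes called among all tested numbered 1123 over the 12 libraries, 2030 with DESeq2, 451 with counts summed per animal, and 622 to 1066 with an animal left out. For the ascending and descending segments they were 315 and 385, with DESeq2 909 and 919, and with an animal left out 128 to 240 and 136 to 330; with the descending libraries fitted alone 150 were called. Between segments of GFPiSMC and of Tgfbr1/2iSMCKO mice, 84 and 25 were called, 284 and 164 with DESeq2, 6 to 86 and 5 to 19 with an animal left out, and 47 without a filter in the latter.

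Replicate numbers do not pair animals across genotypes (correlation of deviations −0.416 to 0.156). As a replicate block they left 6 members called over the 12 libraries and 5 in the ascending segment, and took the descending count from 5 to 3, where *Fbln5* (adjusted p = 0.0915) and *Mfap5* (0.582) no longer passed. Of all genes, 104 passed in the ascending and 14 in the descending segment with that block. Between segments, where the block pairs libraries of an animal, it took the GFPiSMC count of members from 1 to 2 and left that of Tgfbr1/2iSMCKO at 0. DESeq2 gave 2 members in each, without a filter 1 passed in Tgfbr1/2iSMCKO, and with an animal left out the GFPiSMC count was 0 to 1.

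Sign changed for small differences only, none of which was called. With an animal left out, *Efemp2* ranged from −0.23 to 0.29 over 12 libraries, −0.22 to 0.23 in the ascending, and −0.25 to 0.36 in the descending segment, and between segments from −0.18 to 0.29 in GFPiSMC and −0.0910 to 0.26 in Tgfbr1/2iSMCKO. The difference of effects between segments then ranged from −0.21 to 0.27 for *Efemp2*, −0.22 to 0.18 for *Fbln5*, −0.20 to 0.10 for *Fbn1*, and −0.0049 to 0.35 for *Mfap2*; it was 0.0066 for *Fbln5* and 0.0376 for *Efemp2* with library size only, and 0.0273, 0.0303, and 0.0640 for *Fbn1*, *Fbln5*, and *Efemp2* with a mean of at least 50 counts. Between segments, *Eln* (−0.18 to 0.0390) and *Fbn1* (−0.23 to 0.0640) in GFPiSMC and *Lox* (−0.10 to 0.0157), *Loxl1* (−0.15 to 0.0267), and *Mfap5* (−0.12 to 0.0110) in Tgfbr1/2iSMCKO also turned, as did *Lox* (0.0143) with a mean of at least 50 counts. The causes were not tested.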
